A study of Mus musculus with 12 samples.

Results

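The inhibitors of the cyclin-dependent kinases (CDKs) were examined in germ cells and somatic cells of the fetal mouse ovary. They were the 8 rows of the deposited gene count table whose gene symbol was Cdkn1a, Cdkn1b, Cdkn1c, Cdkn2a, Cdkn2b, Cdkn2c, Cdkn2d or Cdkn3, out of 54532 gene IDs, of which 36214 had at least 1 count. All 8 were found, each once. RNA was measured in 12 bulk libraries, 3 per group, from ovaries of female embryos at E15.5 (embryonic day) of the mouse strain labelled Tg(Pou5f1-EGFP)2Mnn. In these mice the regulatory sequence of Pou5f1, the gene of the germ cell factor OCT4, drives a green fluorescent protein (GFP). For each g of body weight, pregnant dams received 10 µg of dexamethasone (dex), a drug that activates the glucocorticoid receptor, or else the same volume of saline, by intraperitoneal injection on each of 4 days from E12.5 to E15.5. The 4 groups were GFP-positive germ cells after dex, GFP-positive germ cells after saline, GFP-negative somatic cells after dex and GFP-negative somatic cells after saline. All groups carried the transgene, mesonephroi had been dissected away, ovaries of several litters were pooled for a library, and the GFP-negative cells were every other live cell type of the ovary rather than one lineage.

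CDK inhibitors restrain the kinases that drive the cell cycle. The CIP/KIP proteins, p21 from Cdkn1a, p27 from Cdkn1b and p57 from Cdkn1c, bind many cyclin and CDK complexes, whereas the INK4 proteins from Cdkn2a, Cdkn2b, Cdkn2c and Cdkn2d bind Cdk4 and Cdk6 and keep them from the D-type cyclins. Cdkn3 encodes a phosphatase, KAP, that removes an activating phosphate from CDKs. In the fetal ovary the germ cells stop dividing by mitosis and enter meiosis, while somatic cells around them divide or, as pregranulosa cells, become quiescent with p27 in their nuclei. Cdkn1c is imprinted and is read mainly from the maternal chromosome.

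Levels below are in CPM, the count over the library total after TMM scaling, and are given as the mean ± SD over 3 libraries. Library totals were 14658503 to 17616664 counts in germ cells and 15161804 to 18245507 in somatic cells, so that 3 counts, taken as the floor of detection, came to 0.174 to 0.196 CPM and 0.169 to 0.194 CPM. The sort was checked with marker lists. The summed level of 10 germ cell markers ranged from 5673 to 6858 CPM over the germ cell libraries and from 9.97 to 33.5 CPM over the somatic ones, and that of 10 stromal markers from 126 to 266 CPM and from 20319 to 26851 CPM. Within the somatic libraries, the germ cell markers summed to 9.97 to 16.2 CPM in saline and to 18.5 to 33.5 CPM in dex. Of these markers, Dazl was called higher after dex in somatic cells, while Pou5f1 and Dppa3 had no count in any dex somatic library. The somatic libraries also held blood, since 8 erythroid markers summed to 3287 to 16517 CPM there. Of 6 known targets of the glucocorticoid receptor, 6 were called higher after dex in somatic cells, beside 4.81% of all genes tested. In germ cells 3 (Per1, Hif3a and Zbtb16) were called higher, beside 0.208% of all genes tested called in either direction. For Per1, a clock gene, the somatic level was 82.8 ± 6.04 CPM in saline and 265 ± 38.2 CPM in dex, and the germ cell level was 14.5 ± 1.17 and 53.5 ± 11.5 CPM.

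Germ cells and somatic cells differed in the level of 6 of the 8 CDK inhibitors. In saline, the 3 CIP/KIP genes were lower in germ cells than in somatic cells, Cdkn2a, Cdkn2b and Cdkn3 were higher, and Cdkn2c and Cdkn2d were at like levels in both. By edgeR's quasi-likelihood test with Benjamini-Hochberg (BH) adjustment over all genes tested, 3 of 8 members were higher in germ cells, beside 43.1% of all 17941 genes, and 3 of 8 were lower, beside 42.9%. In the dex libraries, which the saline test did not use, 6 members again passed the test, the CIP/KIP genes lower and Cdkn2a, Cdkn2b and Cdkn3 higher in germ cells, beside 42% of 18171 genes higher and 42.2% lower. The cell types differed at most genes, so a share of called members near these backgrounds is not particular to the inhibitors. The plot of levels by library shows each gene on its own scale.

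**Figure D1:**
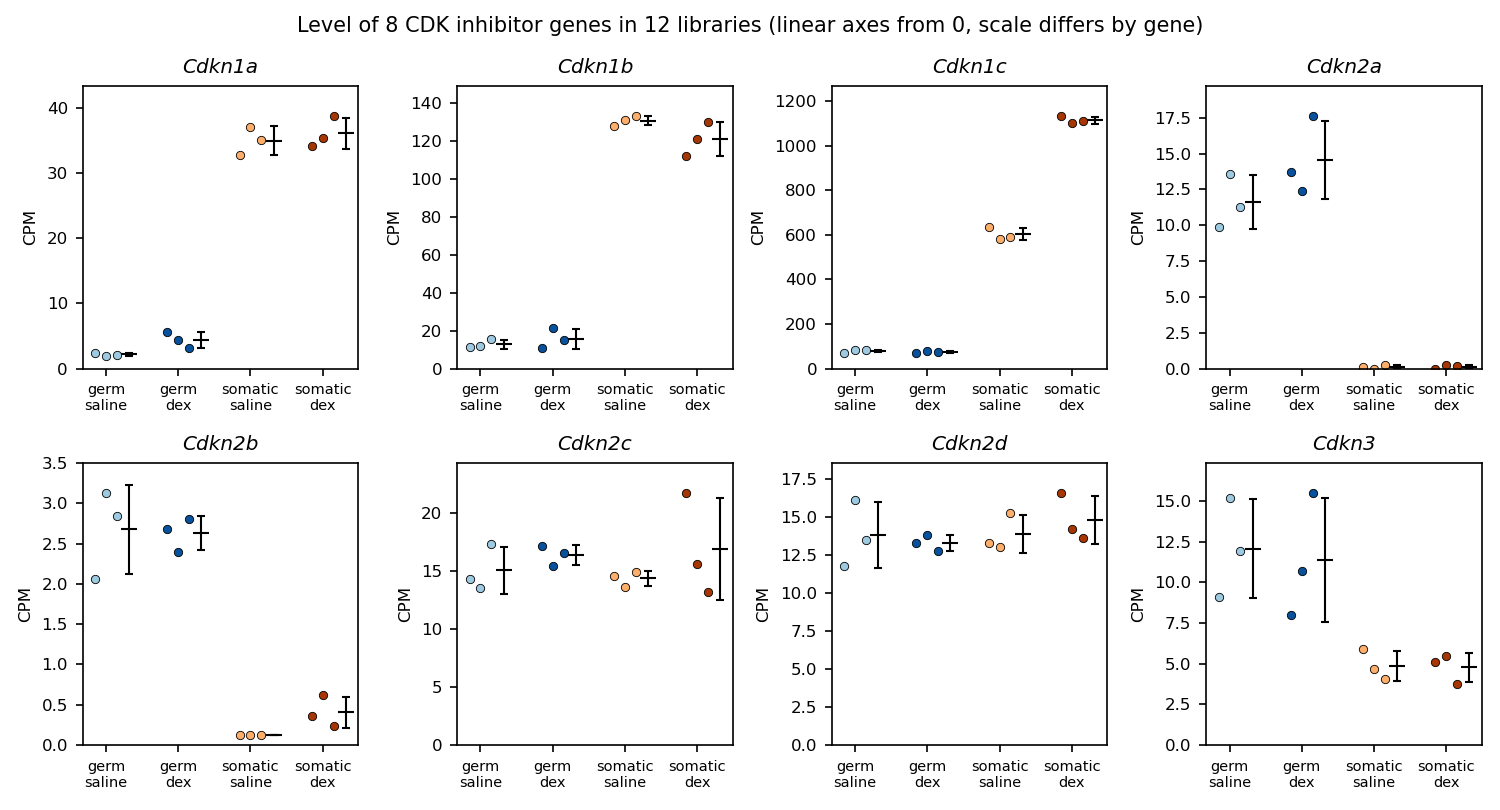
Level of each of the 8 CDK inhibitor genes in CPM (linear y axes from 0, a separate scale for each gene) in the 12 libraries of the 4 groups on the x axis. Points are libraries and the bar beside them is the mean ± SD of 3. Cdkn1a, Cdkn1b and Cdkn1c are high in somatic cells, Cdkn2a and Cdkn2b are near 0 there, and Cdkn1c alone has dex somatic libraries (1101 to 1132 CPM) far above the saline ones (583 to 633 CPM).

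Cdkn1c, which encodes p57, had the highest level per length (FPKM) of the members in every group and was the only member that passed the test for dex against saline in either cell type. The gene lies at chr7:143458339-143461050 on the minus strand (GRCm38). In somatic cells its level was 633, 583 and 591 CPM in the 3 saline libraries and 1132, 1101 and 1112 CPM in the 3 dex libraries. All dex libraries lay above all saline libraries, with a gap many times the spread within either group. The log2 fold change was 0.90 (SE 0.06, 95% confidence interval 0.77 to 1.03), a rise of 1.86-fold, with an edgeR BH-adjusted p of 6.78e-07. Of 6 members that passed the low-count filter in somatic cells, Cdkn1c was the 1 called higher, beside 4.81% of all 16556 genes tested that were called higher and 8.18% called in either direction. The members' median log2 fold change was 0.07 and that of all genes tested was 0.00. DESeq2 also called 1 member. Among the 797 genes called higher in somatic cells, 245 had a larger log2 fold change than Cdkn1c, but only 4 gained more CPM, since its mean level went from 602 ± 26.6 to 1115 ± 15.9 CPM, a gain of 513 CPM.

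In germ cells Cdkn1c did not follow. Its level was 71.8, 82.9 and 81.1 CPM in the saline libraries and 67.5, 77 and 73 CPM in the dex libraries. The ranges overlapped, and the log2 fold change was -0.10 (95% confidence interval -0.26 to 0.07, edgeR BH-adjusted p = 0.653). The dex effect in germ cells minus that in somatic cells, tested in 1 fit of all 12 libraries, was -1.00 on the log2 scale (SE 0.10, 95% confidence interval -1.21 to -0.80, edgeR BH-adjusted p = 3.03e-05). Cdkn1c was the 1 of 8 members called in this test of the difference, beside 1.13% of 19390 genes called lower in germ cells. Cdkn1c was 7.68-fold lower in germ cells than in somatic cells in saline (log2 fold change -2.94, SE 0.08) and 15.7-fold lower in dex (-3.97, SE 0.08).

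These are bulk libraries, in which fewer cells of a type and less RNA per cell cannot be told apart. In somatic cells, 5 of 8 macrophage markers were lower after dex, with a summed level of 188 to 262 CPM in saline and 49.5 to 133 CPM in dex, and 3 of 8 endothelial markers were lower and 1 was higher, with sums of 329 to 394 and 296 to 328 CPM. The 11 pregranulosa markers (1 lower, none higher) summed to 1539 to 1657 CPM in saline and 1274 to 1623 CPM in dex, and the 10 stromal markers (1 higher, none lower) to 21925 to 24374 and 20319 to 26851 CPM. Over all 16556 genes tested in somatic cells, 4.81% were called higher after dex and 8.18% in either direction. None of these markers was at 0 in either somatic group. The part of these shifts in the rise of Cdkn1c was not tested. Cdkn1c overlaps Gm44732, an antisense transcript that had 0 to 5 counts in any library, against at least 1032 for Cdkn1c. The strand setting of the counting is not given in the sources used here, so reads of the pair cannot be fully separated.

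Cdkn1a, the p21 gene and a target of p53, lies at chr17:29090976-29100727 on the plus strand and has an upstream and a downstream group of annotated starts. RefSeq gives a promoter window for each, and the downstream one is shown because it was the only window of the family with a TATA element. It is at chr17:29093649-29093768 on the plus strand (GRCm38.p6), the 120 bases that end just before the annotated start. Capitals mark GC boxes (GGGCGG or CCGCCC) and the TATA element (TATAA).
Cdkn1a downstream start: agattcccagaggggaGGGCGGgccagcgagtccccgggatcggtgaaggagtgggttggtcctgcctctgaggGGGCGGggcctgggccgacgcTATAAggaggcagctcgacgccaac
Of all 32851 RefSeq windows of this length, 26.5% held a GC box and 8.53% a TATA element in this orientation, and among the 10 windows of the members 5 and 1 did. The 300-base windows of the members, from 250 bases before to 50 after the start, held no AGAACA and TGTTCT spaced by 3 bases, the palindrome that the glucocorticoid receptor binds, which was in 3 of the 32851 windows. A single arm of it was in 1 of 10 member windows, a window of Cdkn2c, and in 19% of all windows. Cdkn1c had no entry.

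In germ cells Cdkn1a was low, at 2.45, 1.95 and 2.15 CPM in saline and 5.56, 4.4 and 3.1 CPM in dex. The counts behind these were 38, 33 and 37 in saline and 85, 68 and 52 in dex, and every dex library lay above every saline library. The log2 fold change was 1.02 (SE 0.28, 95% confidence interval 0.41 to 1.63), with an unadjusted p of 0.00341 that did not pass after adjustment over all genes (edgeR BH-adjusted p = 0.218). With every gene that had a count left in, edgeR gave an adjusted p of 0.0446, the 1 of 12 alternatives that called it. DESeq2 gave an adjusted p of 0.184. In somatic cells it was 32.7, 37.1 and 35.1 CPM in saline and 34.2, 35.3 and 38.7 CPM in dex, overlapping ranges with a log2 fold change of 0.05 (95% confidence interval -0.15 to 0.25). The germ cell effect minus the somatic effect was 0.95 (SE 0.26), with an adjusted p of 0.08 by edgeR. This difference was called under 3 of 18 alternatives. They were DESeq2 (0.94, BH-adjusted p = 0.0144), edgeR on the unfiltered genes (0.95, adjusted p = 0.0162) and edgeR without germ cell dex replicate 3 (1.17, adjusted p = 0.019). That replicate had the lowest Cdkn1a of the dex germ cell libraries. Under the others it was not called, with an edgeR adjusted p of up to 0.169.

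The germ cell level of Cdkn1a came to 6.24% ± 0.725 of the somatic level in saline and to 12.1% ± 3.41 in dex. The median of the same share over the 11 pregranulosa markers was 5.84% ± 1.43 in saline and 8.53% ± 4.82 in dex, and over the stromal markers it was 0.66% ± 0.157 and 0.654% ± 0.257. For erythroid, perivascular, endothelial and macrophage markers it was 0.376%, 1.95%, 2.65% and 4.39% in saline and 0.396%, 2.41%, 2.04% and 12.1% in dex. The share of Cdkn1a in saline was thus close to that of the pregranulosa markers, the marker list with the highest share there, and above those of the other lists. The summed level of the pregranulosa markers in germ cells was 51.4 to 104 CPM in saline and 40 to 151 CPM in dex with no marker at 0. The part of somatic RNA in the germ cell libraries in these values was not tested. For Cdkn1b the share was 9.73% ± 1.69 in saline and 13% ± 4.42 in dex. For Cdkn1c it was 13% ± 0.988 in saline and 6.5% ± 0.43 in dex. The part of somatic RNA in the germ cell levels of Cdkn1b and Cdkn1c was not tested either. Reads of Cdkn1a could also include those of AC167363.2, an overlapping gene on the other strand with 0 to 8 counts.

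Cdkn1b, which encodes p27, lies at chr6:134920401-134925513 on the plus strand. Its germ cell level was 11.2, 11.7 and 15.3 CPM in saline and 10.9, 21.4 and 14.9 CPM in dex, and its somatic level was 128, 131 and 133 CPM in saline and 112, 121 and 130 CPM in dex. The groups overlapped within each cell type, and neither dex effect passed the test (log2 fold change 0.32, SE 0.22, in germ cells and -0.10, SE 0.07, in somatic cells). Between the cell types no libraries overlapped. Cdkn1b was 10.3-fold lower in germ cells in saline (log2 fold change -3.36, SE 0.10) and 7.87-fold lower in dex (-2.98, SE 0.19). For Cdkn1a these values were 16-fold (-4.00, SE 0.15) and 8.48-fold (-3.08, SE 0.19), and all 4 differences were called by edgeR.

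Cdkn2a and Cdkn2b are neighbours on the minus strand of chromosome 4, and both were germ cell genes in these ovaries. Cdkn2a (chr4:89274471-89294653) produces p16 from its downstream start and the unrelated p19Arf, which frees p53 from Mdm2, from its upstream start. The count table merges both. Cdkn2b (chr4:89306299-89311039), 11645 bases upstream of Cdkn2a, encodes p15. The 120 bases before each of the 3 starts (GRCm38.p6, minus strand) are shown side by side, with GC boxes in capitals. They were chosen because both genes were higher in germ cells than in somatic cells, where both were near the floor.
Cdkn2a, p16 start, chr4:89282193-89282312: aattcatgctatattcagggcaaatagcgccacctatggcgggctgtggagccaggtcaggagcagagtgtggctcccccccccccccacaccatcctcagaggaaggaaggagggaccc
Cdkn2a, p19Arf start, chr4:89294654-89294773: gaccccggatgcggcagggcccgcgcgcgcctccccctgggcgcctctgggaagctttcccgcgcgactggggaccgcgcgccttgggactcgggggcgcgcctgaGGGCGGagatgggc
Cdkn2b, chr4:89311040-89311159: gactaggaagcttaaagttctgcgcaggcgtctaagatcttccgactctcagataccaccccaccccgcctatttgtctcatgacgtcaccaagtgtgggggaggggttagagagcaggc
The p19Arf window held 1 GC box and the others none. The p19Arf window was also the richest of the family in CG, with 45 CG dinucleotides in its 300-base window, against 12 for the p16 start, 18 for Cdkn2b and a median of 7 over all windows.

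In saline germ cells Cdkn2a was at 9.87, 13.6 and 11.3 CPM (153, 231 and 194 counts), while the saline somatic libraries had 2, 0 and 4 counts. Summed over 3 libraries and scaled for depth, the germ cell level was 93 times the somatic level (exact 95% interval 42.4 to 254, counting error only), and the difference was called (edgeR BH-adjusted p = 9.97e-10). Its size rests on these few somatic counts, since the fitted log2 fold change of 6.45 was 7.33 without somatic saline replicate 3 and 5.89 without somatic saline replicate 2, and it was called in both. In dex, germ cells had 13.7, 12.4 and 17.6 CPM and somatic cells 0, 4 and 3 counts, a ratio of 108 (52.2 to 270, adjusted p = 5.88e-08). Cdkn2a was at or near the floor of 3 counts in all 6 somatic libraries. The germ cell ranges in saline and dex overlapped, and the dex effect did not pass the test (log2 fold change 0.35, SE 0.17, 95% confidence interval -0.02 to 0.72, edgeR BH-adjusted p = 0.461).

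Cdkn2b was at 2.06, 3.13 and 2.84 CPM in saline germ cells and at 2.68, 2.4 and 2.81 CPM in dex germ cells, with a dex effect of -0.01 (SE 0.26) on the log2 scale. The saline somatic libraries had 2 counts each, and the ratio of germ cells to somatic cells was 21.6 (exact 95% interval 9.65 to 59.8). The dex somatic libraries had 6, 11 and 4 counts, every one above the saline libraries, and there the ratio was 6.46 (4.05 to 10.8). The summed germ cell markers were also higher in every dex somatic library than in any saline one. The somatic level of Cdkn2b came to 4.68% ± 0.147 of its germ cell level in saline and to 15.4% ± 7.46 in dex. The median of the same share over the 10 germ cell markers was 0.207% ± 0.0959 in saline and 0.307% ± 0.197 in dex. The part of germ cell RNA in the somatic counts of Cdkn2b was not tested. Both cell type differences were called, with edgeR BH-adjusted p of 7.46e-07 and 0.000177. Neither Cdkn2a nor Cdkn2b passed the low-count filter in the somatic dex comparison. With the filter removed, the log2 fold change of Cdkn2b in somatic cells was 1.63 (SE 1.06, edgeR BH-adjusted p = 0.539), and the pooled counts of 21 in dex and 6 in saline gave a ratio of 3.25 (1.27 to 9.85, counting error only).

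Cdkn2c, the p18 gene (chr4:109660876-109667189, minus strand), and Cdkn2d, the INK4 gene of p19 (chr9:21288410-21291407, minus strand), were at like levels in the 2 cell types. Cdkn2c was at 14.3, 13.5 and 17.3 CPM in saline germ cells and 14.5, 13.6 and 14.9 CPM in saline somatic cells, which overlap. The log2 difference was 0.07 with a 95% confidence interval of -0.23 to 0.37, so that differences above 1 on the log2 scale, as the 6 called members showed, lay outside it. For Cdkn2d, at 11.8, 16.1 and 13.5 CPM against 13.3, 13 and 15.3 CPM, the difference was -0.01 (-0.33 to 0.31). In dex the differences were -0.08 (-0.47 to 0.32) and -0.18 (-0.49 to 0.13). In dex germ cells Cdkn2c was at 17.1, 15.4 and 16.5 CPM and Cdkn2d at 13.3, 13.8 and 12.8 CPM. In dex somatic cells Cdkn2c was at 21.7, 15.6 and 13.2 CPM, the widest spread of its groups, and Cdkn2d at 16.6, 14.2 and 13.6 CPM. Dex effects of both were within 0.24 of 0 on the log2 scale in either cell type, and none was called.

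Cdkn3, the phosphatase gene (chr14:46760541-46771669, plus strand), was higher in germ cells. It was at 9.1, 15.2 and 11.9 CPM in saline germ cells and 5.89, 4.65 and 4.06 CPM in saline somatic cells. The groups did not overlap, and the difference was 2.47-fold, or 1.31 on the log2 scale (SE 0.22), with an adjusted p of 5.44e-05 by edgeR. In dex, germ cells had 122, 165 and 260 counts (11.4 ± 3.82 CPM) and somatic cells 86, 97 and 64 counts (4.78 ± 0.903 CPM), a difference of 2.33-fold (1.22, SE 0.26, adjusted p = 0.00119). The dex effect was -0.07 (SE 0.23) in germ cells and -0.02 (SE 0.23) in somatic cells, with 95% confidence intervals from -0.58 to 0.44 and from -0.52 to 0.49.

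**Figure D2:**
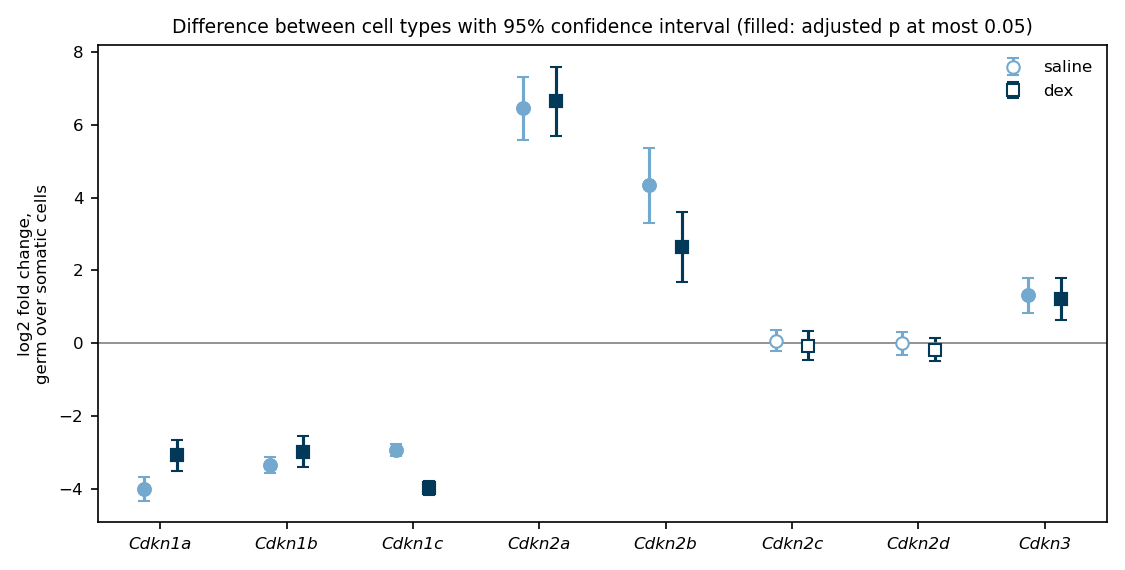
Log2 fold change of germ cells over somatic cells (y axis) for each gene (x axis), in saline (circles) and in dex (squares), with 95% confidence intervals from edgeR. Filled symbols passed an adjusted p of 0.05. The CIP/KIP genes lie between -2.94 and -4.00, Cdkn2c and Cdkn2d at about 0, and Cdkn2a at 6.45 and 6.64.

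Over the 8 members together, 0 were called for dex against saline in germ cells by edgeR, beside 0.208% of 16857 genes tested. 1 member (Cdkn1a) had an unadjusted p below 0.05, beside 11.6% of all genes tested, and DESeq2 called 0 members. The members' median log2 fold change in germ cells was 0.06, and that of all genes was 0.01. The 95% confidence intervals in germ cells differed in width. That of Cdkn1c ran from -0.26 to 0.07 on the log2 scale, whereas those of Cdkn1a, Cdkn1b, Cdkn2b and Cdkn3 spanned about 1 unit.

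**Figure D3:**
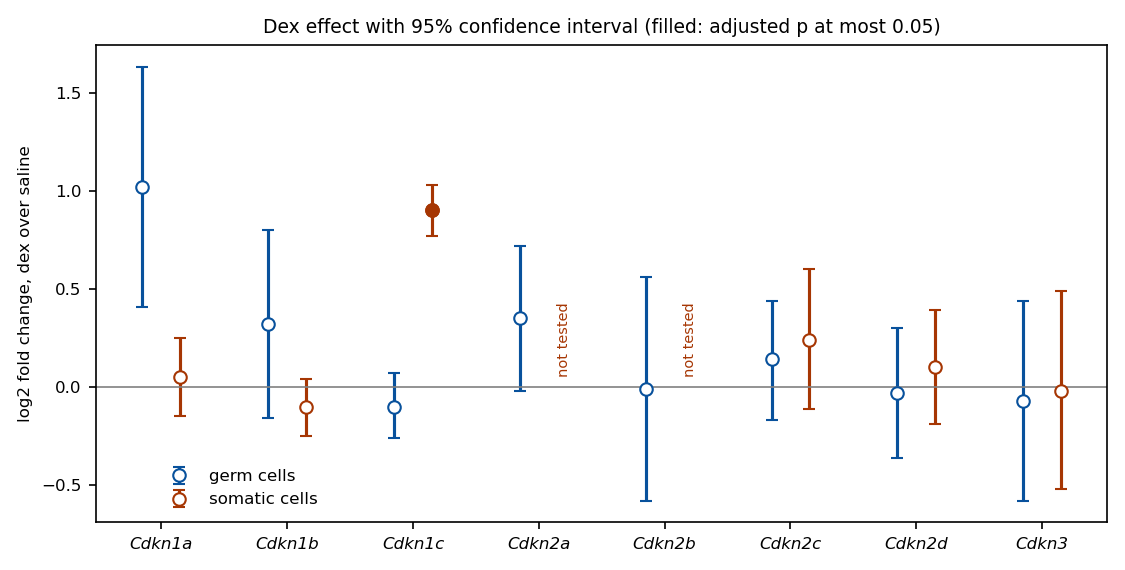
Log2 fold change of dex over saline (y axis) for each gene (x axis) in germ cells and somatic cells, with 95% confidence intervals from edgeR. The filled point, Cdkn1c in somatic cells at 0.90, is the only one that passed an adjusted p of 0.05, and Cdkn2a and Cdkn2b were not tested in somatic cells.

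Levels of different genes were compared per length, as deposited FPKM (fragments scaled to gene length and to depth). Summed over the 8 genes, the level was 73.3 ± 6.84 FPKM in saline germ cells, 73.8 ± 4.22 in dex germ cells, 340 ± 13.3 in saline somatic cells and 587 ± 10.8 in dex somatic cells. Cdkn1c made up 52.7% ± 1.48 of this sum in saline germ cells and 48.1% ± 2.15 in dex germ cells, and 84.3% ± 0.81 and 90.9% ± 0.0428 in somatic cells. In somatic cells the level per length of Cdkn1c, 287 ± 13.8 FPKM in saline and 533 ± 10.1 FPKM in dex, was exceeded by 103 and 49 of the 36214 genes with a count. The 4 INK4 genes together held 35.7% ± 0.92 and 39.1% ± 2.96 of the sum in germ cells, and 4.09% ± 0.342 and 2.67% ± 0.397 in somatic cells.

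In saline germ cells the order per length was Cdkn1c at 38.6 ± 2.64 FPKM, Cdkn2a at 9.89 ± 1.53, Cdkn2d at 8.77 ± 1.3, Cdkn2c at 5.6 ± 0.774, Cdkn3 at 5.08 ± 1.23, Cdkn1b at 2.8 ± 0.491, Cdkn2b at 1.93 ± 0.382 and Cdkn1a at 0.615 ± 0.077. The means of Cdkn2a and Cdkn2d differed by less than the sum of their SDs, as did those of Cdkn2c and Cdkn3 and those of Cdkn1b and Cdkn2b. In saline somatic cells the order was Cdkn1c, Cdkn1b at 27.9 ± 0.526 FPKM, Cdkn1a at 9.55 ± 0.565, Cdkn2d at 8.56 ± 0.765, Cdkn2c at 5.17 ± 0.26, Cdkn3 at 1.99 ± 0.39, Cdkn2a at 0.102 ± 0.101 and Cdkn2b at 0.0875 ± 0.00253. There Cdkn1a and Cdkn2d were not separated by their spread, nor were Cdkn2a and Cdkn2b. After dex the order in germ cells was the same, and in somatic cells Cdkn2b (0.284 ± 0.138 FPKM) stood above Cdkn2a (0.111 ± 0.0983), within their spread.

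**Figure D4:**
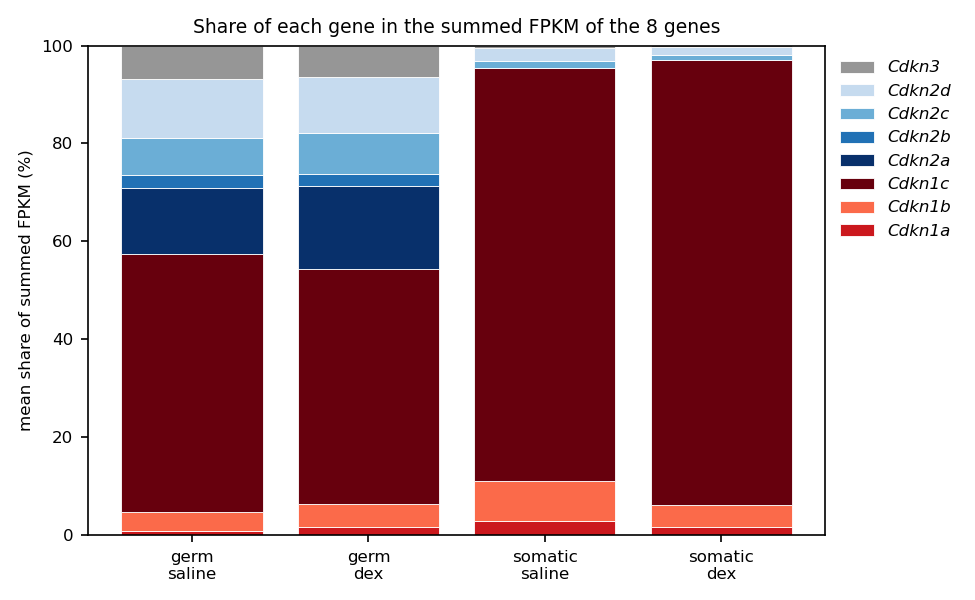
Mean share of each gene in the summed FPKM of the 8 genes (stacked bars, in percent) in the 4 groups, each the mean of 3 libraries. Cdkn1c takes 52.7% and 48.1% in germ cells and 84.3% and 90.9% in somatic cells, and the INK4 genes (blue) are visible mainly in germ cells.

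The members whose level differed most between cell types had patterns like those of many other genes. Over the 12 libraries, which share the split by cell type, Cdkn1c was most like Penk (Pearson r of log2 CPM 0.999) and Pik3r1 (0.998), and 4179 of 16141 other genes had an r of at least 0.95 with it. Cdkn1b was most like Plin2 and Prr13 (0.999 each), Cdkn1a most like Suox (0.996) and Sept1 (0.995), Cdkn2a most like Zdhhc6 and Lrrc46 (0.998 each), and Cdkn2b most like 2900005J15Rik (0.996) and Aste1 (0.995). Cdkn3 was most like Selenok (0.985) and 4933431K14Rik (0.970), with 44 genes at 0.95 or more. For Cdkn2c (Setd5, 0.772, and Fam221a, 0.757) and Cdkn2d (Bcl7b, 0.846, and Mrpl32, 0.761) no gene reached 0.95.

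The kinases and cyclins that the inhibitors bind, and the genes that act on the inhibitors, were followed in 10 lists of 132 genes. In germ cells none of the 129 genes tested was called for dex against saline by edgeR, while 22 had an unadjusted p below 0.05, which is 17.1% beside 11.6% of all 16857 genes, and DESeq2 called 1. In somatic cells 11 of 129 were called, 8 higher and 3 lower, which is 8.53% beside the 8.18% of all genes. The medians over the listed genes were -0.03 and -0.01 on the log2 scale. The G1 cyclins and CDKs (8 genes), the S and M phase cyclins with Cdk1 (6 of 7 tested), the CDK activators (8), the other CDK restraints (6) and the proliferation markers (28) had no call in somatic cells, with list medians from -0.09 to 0.03.

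In somatic cells Cebpd and Cebpb, transcription factors that act in differentiation, were at 16 ± 1.08 and 37.8 ± 6.63 CPM in saline and rose to 76.1 ± 11.6 and 79 ± 14 CPM in dex, by 2.25 (SE 0.11) and 1.07 (SE 0.13) on the log2 scale. E2f1, a factor that drives S phase genes and is held by RB proteins, rose from 43.6 ± 2.34 to 79.2 ± 7.54 CPM (0.87, SE 0.08). Foxo3, a known activator of Cdkn1b, rose from 149 ± 9.68 to 217 ± 0.132 CPM (0.55, SE 0.06). Id1 and Id3, which block helix-loop-helix factors, fell by 0.30 (SE 0.07) and 0.24 (SE 0.06) on the log2 scale, and Smad2 fell by 0.30. Of 18 p53 targets, Sesn1 (0.37, SE 0.07), Trp53inp1 (0.36, SE 0.08) and Ccng1 (0.29, SE 0.07) were called higher, beside 4.81% of all genes. None was called lower, and the list median was -0.06. Ccng1 and Smad2 are named because they complete these counts.

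Cdkn1c lies in an imprinted domain, and of its 10 listed neighbours only Kcnq1ot1 was called in somatic cells after dex. Kcnq1ot1, the noncoding RNA whose transcription silences Cdkn1c in cis on the paternal chromosome, had a mean of 36.7 ± 0.31 CPM in saline and of 53.9 ± 12.3 CPM in dex, a rise of 0.56 on the log2 scale (SE 0.13) with an adjusted p of 0.0157 by edgeR. It overlaps Kcnq1 on the other strand, so its count has the limit given for Cdkn1c. The median of the list was -0.02. In the test of the difference, 4 of the 132 genes had a dex effect that was lower in germ cells, beside 1.13% of all genes, and none had a higher one. They were Cebpd (-1.75, SE 0.21), E2f1 (-0.81, SE 0.13), Foxo3 (-0.80, SE 0.12) and Foxo1.

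**Figure D5:**
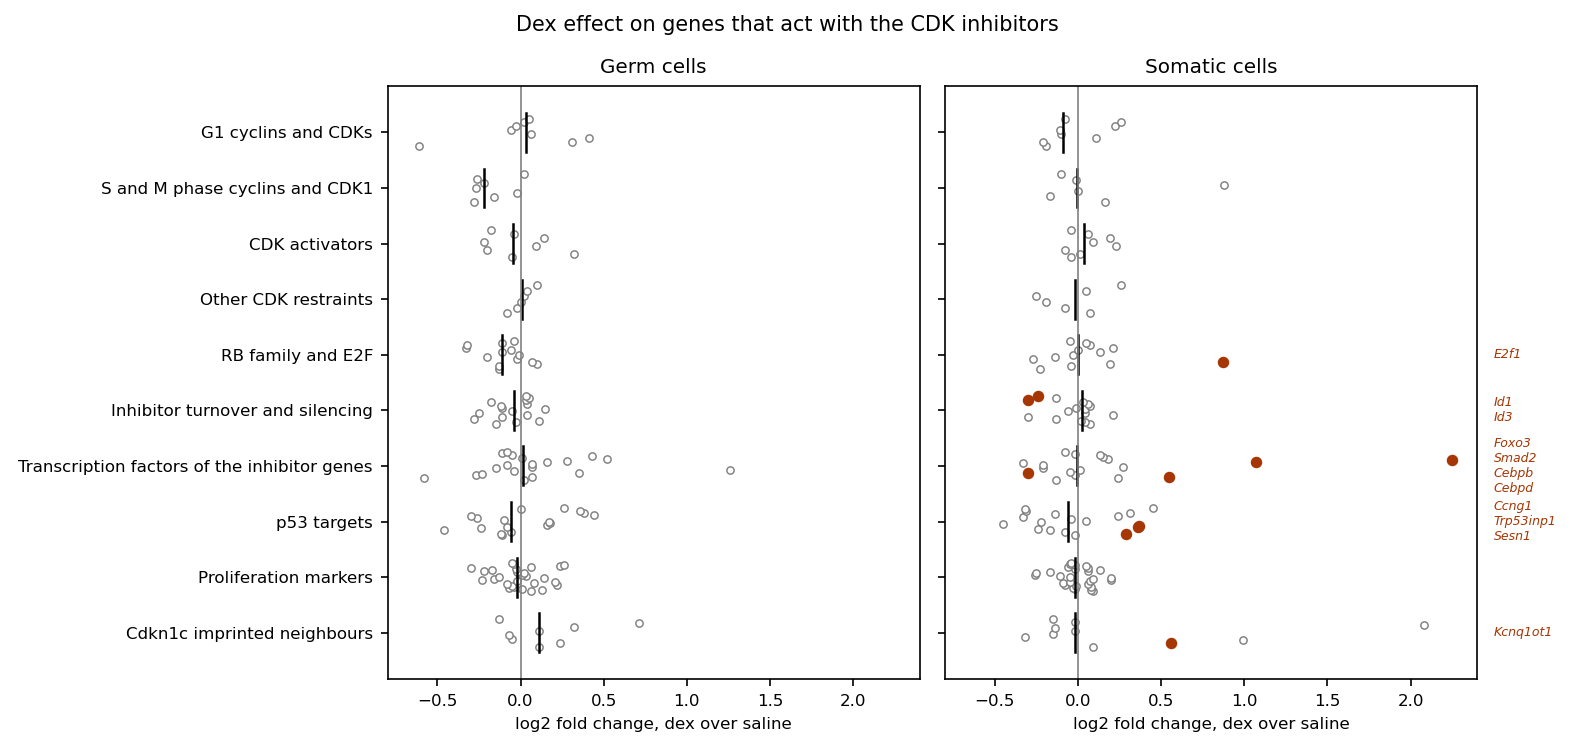
Log2 fold change of dex over saline (x axis) for the genes of 10 lists (rows), in germ cells and somatic cells. Points are genes, filled and named at the right where the adjusted p was at most 0.05, and the black bar is the list median. No gene of these lists is filled in germ cells, and 11 are in somatic cells, led by Cebpd at 2.25.

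In saline, the genes of these lists that were higher or lower in germ cells than in somatic cells are read beside 43.1% of all 17941 genes higher and 42.9% lower, so that a list called at most of its genes is not particular. Of the 8 G1 cyclins and CDKs, the targets of INK4 proteins among them, 2 were higher in germ cells and 5 lower, with Ccnd2 (-5.69, SE 0.14) and Ccnd3 (-4.36, SE 0.11) the lowest on the log2 scale. All 7 of the S and M phase cyclins and Cdk1 differed, 3 higher and 4 lower, led by the meiotic cyclins Ccnb3 (10.11, SE 0.18), at 749 ± 75.3 CPM against 0.675 ± 0.379 CPM, and Ccna1 (3.04, SE 0.36). Rb1, the tumour suppressor that G1 kinases inactivate, was higher in germ cells (163 ± 7.55 against 25.6 ± 3.02 CPM, log2 2.67, SE 0.09), and its relative Rbl2 was lower (7.85 ± 0.311 against 40 ± 3.46 CPM, -2.35, SE 0.12).

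Among genes that silence Cdkn2a, the repressors Tbx2 and Tbx3 were lower in germ cells, at 10.3 ± 1.93 against 214 ± 7.22 CPM and at 1.09 ± 0.713 against 145 ± 4.14 CPM. The silencers of the Polycomb group went both ways. Suz12, Rnf2, Bmi1 and Cbx7 were higher in germ cells, Ring1 was lower, and Ezh2 and Eed were not called. They are named to give both directions. Of all 16 genes of that list, 7 were higher and 7 lower. Myc (-6.33, SE 0.19) and Klf6 (-4.89, SE 0.14) led the 10 lower transcription factors, beside 9 that were higher. Of the 28 proliferation markers 12 were higher in germ cells and 13 lower, with Aurkb (-5.50, SE 0.18) and Tyms (-3.51, SE 0.11) furthest from 0. The counts of these 3 lists are near the shares over all genes, 43.1% higher and 42.9% lower. The other lists had Cdc25b (-3.67, SE 0.15) and Cks1b (-2.77, SE 0.10) among the activators, Cdk5rap1 (1.94, SE 0.10) and Cinp (1.93, SE 0.09) among the restraints, Btg2 (-5.06, SE 0.15) and Fas among the p53 targets, and Osbpl5 (-5.34, SE 0.13) and Cd81 (-3.65, SE 0.08) beside Cdkn1c. Fas lay under the floor in germ cells, at 0.086 ± 0.149 CPM, against 2.05 ± 0.159 CPM.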

How the data were processed

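The authors' sequencing provider made poly-A libraries, aligned read pairs to mm10 with HISAT2 2.0.5 and counted reads per gene with featureCounts 1.5.0-p3 (versions per the submitters' processing notes). The strand setting and the handling of multiply mapped reads are not given in the sources used here. The authors deposited raw counts per gene with GRCm38 coordinates, and FPKM, which divide those counts by gene length and depth. The deposited tables of the authors' own DESeq2 comparisons (fold changes and p-values, DESeq2 1.20.0) were not used. No column of the count table was left unassigned to a library.

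Counts were tested with edgeR 4.0.16 (quasi-likelihood, TMM, filterByExpr) in R 4.3.3 with limma 3.58.1, with BH adjustment over all genes tested and a call at an adjusted p of at most 0.05. Each comparison used only its own libraries, and the difference of the dex effects used all 12. Standard errors follow from the F statistic. The test was checked on simulated counts that had the same spread at every gene, with changes set only in genes above a low level. That check does not cover members at a low level or with a wide spread between replicates. Replicates of a group differed by more than sampling noise (chi-square per degree of freedom 5.48 to 21.85). Alternatives were other scalings, no low-count filter, DESeq2 1.42.0, all 12 libraries in one fit, a replicate block and leaving out each library. Intervals of pooled counts are exact 95% binomial intervals on counts summed over 3 libraries. They cover counting error only and leave out the spread between replicates. The reads carried no molecular identifiers, so even the counting error may be understated.

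The 8 members, the lists and the tests were chosen with earlier results of these data known. Named from each pathway list were the 2 called genes of largest absolute log2 fold change with a mean of at least 1 CPM, in each dex comparison and between cell types in saline, and for each member the 2 genes of highest Pearson r of log2(CPM + 0.5). Sequences are from RefSeq (GRCm38.p6) and were found for 7 of 8 members. Sept1, whose symbol the count table gives as a date, was named from its gene ID.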

Additional observations from a re-analysis of the deposited data

Results flagged for a closer look

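The dex effect of Cdkn1c differed between germ cells and somatic cells by a test of the difference itself. The germ cell effect minus the somatic effect was -1.00 on the log2 scale (SE 0.10, edgeR BH-adjusted p = 3.03e-05). The effect was 0.90 in somatic cells, where the level was higher in 3 of 3 dex libraries than in any saline library, and -0.10 in germ cells, where the ranges overlapped. Groups of 3 libraries are too small for a test of single libraries that stand apart.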

How the results depend on the processing

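Cdkn1c was called higher after dex in somatic cells under all 12 alternatives (log2 fold change 0.86 to 0.93) and in the difference of the dex effects under all 18 (-1.06 to -0.94). The 6 members that differed between cell types were called in saline and in dex under all alternatives, and no called member changed sign (174 values). In germ cells 0 members were called under every alternative but the removal of the low-count filter, which called 1 (Cdkn1a), and leaving out each library gave 0 to 0. In the difference, 2 members (Cdkn1c and Cdkn1a) were called without the filter, by DESeq2 (2), and without germ cell dex replicate 3, so that leaving out each library gave 1 to 2.

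Counts over all genes moved more. For dex in germ cells 35 genes became 420 without the filter, 158 by DESeq2, 64 with all 12 libraries in one fit and 17 to 81 leaving out each library. In somatic cells 1354 became 803 with all 12 libraries in one fit and 754 to 1881 leaving out each library. The 314 of the difference became 727 without the filter, 620 by DESeq2 and 143 to 384 leaving out each library. The causes were not tested.

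Uncalled members near 0 changed sign in 32 values. The log2 fold changes for dex in germ cells were, for Cdkn2b, 0.01 on library totals, 0.00 with the replicate block and -0.16 to 0.11 leaving out each library, and by leaving out each library -0.13 to 0.09 for Cdkn2d and -0.34 to 0.13 for Cdkn3. In somatic cells they were -0.00 to 0.10 for Cdkn1a and -0.14 to 0.14 for Cdkn3. In the difference they were -0.67 to 0.80 for Cdkn2a, -0.25 to 0.12 for Cdkn2c and -0.33 to 0.14 for Cdkn3, which was 0.00 on library totals. Between cell types they were -0.05 to 0.15 for Cdkn2c and -0.13 to 0.09 for Cdkn2d in saline, the latter 0.03 with DESeq2 size factors and 0.02 by DESeq2, and -0.22 to 0.16 for Cdkn2c in dex, 0.00 by DESeq2.

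Replicate numbers were shared across groups. Between treatments, deviations of same-numbered libraries from their group means correlated at -0.00 to 0.16, and 3 of 6 libraries correlated best with their own number. Between cell types the correlations were also weak, at 0.06 to 0.11 in saline and 0.08 to 0.12 in dex. There every library correlated best with its own number (6 of 6 in saline and in dex). The main tests did not use this match, and the blocks were run as alternatives. With the replicate block, 0, 1, 1, 6 and 6 members were called in the 5 comparisons, and 49 genes in germ cells, 1520 in somatic cells and 313 in the difference. Blocking by treatment and replicate number gave 222 genes and 1 member in the difference. It takes same-numbered germ cell and somatic libraries of a treatment as the same ovary pool, which the sample labels do not state. No call of a member changed.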
